A study of Caenorhabditis elegans with 2 samples.

Results

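Nuclear hormone receptors are transcription factors with a zinc finger DNA-binding domain and a ligand-binding domain, and many of them switch genes on or off when a lipid or other small molecule binds. Nematodes carry a greatly enlarged family, in which a small group of receptors shared with insects and vertebrates stands beside a large set thought to descend from an HNF4-like ancestor. Members with known roles act in moulting, fat metabolism, sterol and xenobiotic handling, vitamin B12 sensing and development. The genes described here are all 269 protein-coding genes of Caenorhabditis elegans whose name starts with nhr-, out of 19973 nuclear protein-coding genes of the annotation. The rule for membership used the name alone and no measured value. The members and lists were, however, chosen with earlier results of these data known.

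Binding was profiled by ChIP-seq, in which DNA bound by a tagged protein is enriched and sequenced, in whole L1 larvae of mixed sex from strain OP321. That strain is an unc-119(tm4063) mutant with the insertion wgIs321, which carries tlp-1, a C2H2 zinc finger gene, fused to eGFP. There was a single group of 2 biological replicates. All larvae carried the same mutation and the same insertion, and whole animals give no cell type. Control data were not analysed here. The gene tlp-1 itself had 0 regions in reach in each of the 4 lists used, so the data are referred to as the libraries labelled tlp-1.

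The deposited lists on ce11 held 28183 regions for replicate 1, 23975 for replicate 2, 11633 for the pooled replicates and 328 after thresholding by irreproducible discovery rate. Of these, 28158, 23953, 11608 and 303 were nuclear. Each region carries the authors' signal, which has no stated scale and no replicate error. Signals differ in scale between lists, so ranks by signal (1 is highest) are used between lists. Ranks count the mitochondrial regions too, of which 23 stood above the first nuclear region in the pooled list. A region was assigned to every gene whose body held its summit or whose transcription start site (TSS) lay within 2000 bp of it, so that 1 region can belong to several genes. No read counts stand in the lists, and the depth is unknown.

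Regions at 5 receptor loci reached the thresholded list. Of the 5, 4 held a WGATAR site (defined below) within 50 bp of the summit, against 88.8% of all 303 nuclear thresholded regions. The windows of 101 bases centred on the pooled summit are shown for 4 of these 5 regions, because they carry the strongest signal of the family, and for 2 regions below the threshold that mark the range, at nhr-11 with the most sites and at nhr-12 with none. Capitals mark matches to WGATAR (A or T, then GATA, then A or G) on either strand, and matches may overlap. All are plus-strand sequence of WBcel235, the assembly behind ce11. The window at nhr-8 lies over a 5′ UTR and is not shown.
nhr-97 (chrIV:9762915-9763015): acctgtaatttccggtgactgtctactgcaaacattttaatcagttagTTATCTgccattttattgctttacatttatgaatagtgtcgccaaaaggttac
nhr-80 (chrIII:15374-15474): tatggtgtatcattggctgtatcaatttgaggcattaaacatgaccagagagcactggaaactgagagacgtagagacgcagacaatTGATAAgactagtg
nhr-88 (chrII:2975704-2975804): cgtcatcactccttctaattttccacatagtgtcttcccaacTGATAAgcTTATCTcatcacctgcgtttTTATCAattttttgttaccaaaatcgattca
nhr-130 and nhr-212 (chrV:483556-483656): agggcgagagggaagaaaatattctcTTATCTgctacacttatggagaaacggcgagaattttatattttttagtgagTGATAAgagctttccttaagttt
nhr-11 (chrIV:9070325-9070425): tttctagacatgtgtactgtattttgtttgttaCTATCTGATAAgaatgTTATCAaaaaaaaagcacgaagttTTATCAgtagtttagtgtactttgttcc
nhr-12 (chrV:10084779-10084879): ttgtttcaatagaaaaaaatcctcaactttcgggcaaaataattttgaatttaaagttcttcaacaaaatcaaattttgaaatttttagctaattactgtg

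The highest signal in the family lay inside nhr-97 (WBGene00003687, chromosome IV 9757641 to 9764499, plus strand). The region, at 9762805 to 9763124, sat in an intron 2811 bp downstream of the nearest TSS of the gene, and no other protein-coding gene was in reach. Its signal was 85.5 in the pooled list, where it ranked 39. It ranked 46 in replicate 1, with a signal of 34.4, and 48 in replicate 2, with a signal of 51.1, so that it stood within the first 50 nuclear and mitochondrial regions of every list. A single AGATAA on the minus strand was centred on the pooled summit. Gene nhr-97 had 3 further pooled regions, with signals of 20.6, 19.95 and 14.5, and each of these ranked below 2000.

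The gene nhr-80 encodes a receptor that controls fatty acid desaturase genes. It lies near the left end of chromosome III (11985 to 14869, minus strand), and its thresholded region at 15264 to 15583 was 555 bp upstream. The signal was 51.4, and the region ranked 154 in the pooled list, 183 in replicate 1 and 221 in replicate 2. The neighbouring gene H10E21.1 was also in reach, and its TSS was the nearer one. A second pooled region stood 22 bp upstream of the nhr-80 TSS, with a signal of 29.2 and rank 711, and another stood 1142 bp upstream at rank 8641. The first region held a TGATAA 39 bp from its summit.

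Upstream of nhr-88 (chromosome II 2976639 to 2987023, plus strand) the region at 2975594 to 2975913 lay 885 bp before the TSS and had no other gene in reach. Its signal was 50.8 in the pooled list (rank 160). It ranked 389 in replicate 1 with a signal of 15.8, and 174 in replicate 2 with a signal of 31.2. There were 3 WGATAR sites within 50 bp of the summit, at 5 bp before it, 2 bp after it and 22 bp after it. Gene nhr-88 had 3 weaker pooled regions as well, at ranks 3873, 5025 and 8262.

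A divergent pair of receptor genes on chromosome V, nhr-130 (480814 to 483339, minus strand) and nhr-212 (484857 to 486897, plus strand), shared a single thresholded region at 483446 to 483765. It lay 267 bp upstream of nhr-130 and 1251 bp upstream of nhr-212, and no gene outside the family was in reach. The signal was 43.3, with rank 240 in the pooled list, 428 in replicate 1 and 179 in replicate 2. The window held an AGATAA and a TGATAA, 21 bp before and 30 bp after the summit. A second region between the same genes ranked 7841 and was not overlapped in replicate 1.

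The last thresholded region stood at nhr-8, whose product is known for xenobiotic resistance and cholesterol balance. Its summit fell in the 5′ UTR, 29 bp after the TSS, on chromosome IV at 7710857 to 7711176. The signal of 41.1 ranked 266 in the pooled list, 157 in replicate 1 and 470 in replicate 2. This was the only one of the 5 regions without a WGATAR site within 50 bp of the pooled summit. The summit in replicate 1 lay 1 bp after the TSS and had a site 36 bp away. The genes mrpl-1, emc-6 and mrps-24 were in reach too, so the region cannot be ascribed to nhr-8 alone. Its signal was the one just inside the threshold among receptor genes. Just outside stood nhr-12, at 35.8 and rank 400, while the lowest signal of the thresholded list was 38.2.

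In all, 6 of 269 receptor genes (2.23%) had a thresholded region, against 1.71% of all protein-coding genes. The share is close to the background, and the count was 3 genes when each region counted only for the gene of the nearest TSS, against 1.13% of all genes under that rule. That rule drops nhr-97, nhr-80 and nhr-212. With a region among the first 1000 of the pooled list there were 20 receptor genes (7.43%), against 5.07% of all genes.

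The strongest pooled regions of the 25 leading receptor genes, 24 distinct regions, extended down to a signal of 24.2. These 24 include the 5 thresholded regions. Of the 25, 15 were upstream of their gene, 6 in an intron, 2 in a 5′ UTR, 1 in a coding exon and 1 downstream. Of the 24 distinct regions, 13 held a WGATAR site, against 67.9% of all nuclear pooled regions down to the same rank, 1300. Both replicates overlapped 21 of the 24, against 92.2% of all regions to that rank. Neither share of the leading receptor genes was above that of other regions of like rank.

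**Figure D1:**
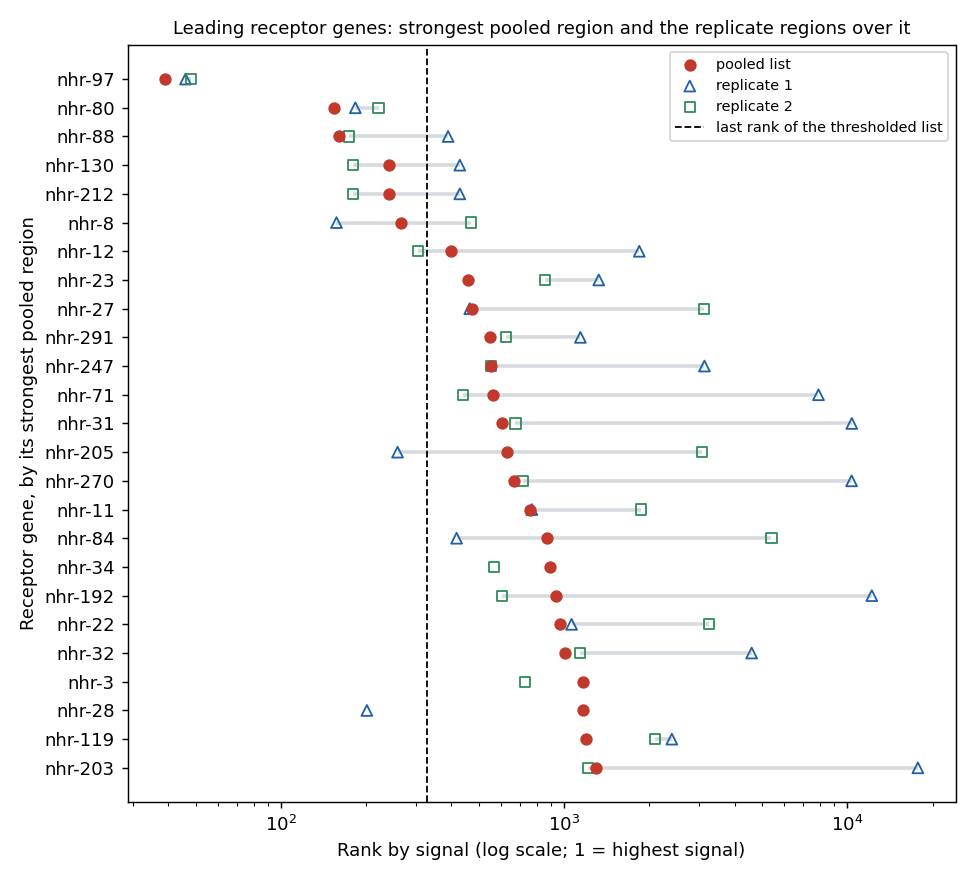
Rank by signal (log scale) for the 25 receptor genes with the strongest pooled regions, in the pooled list (filled circles) and for the overlapping regions in replicate 1 (triangles) and replicate 2 (squares); the grey bar joins the replicates and the dashed line marks rank 328. The symbols lie close together for nhr-97, at ranks 39, 46 and 48, and lie far apart for genes such as nhr-31, at 605, 10371 and 673.

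The gene nhr-23, which encodes the ROR-related receptor required for moulting, had 4 pooled regions. The strongest, at chromosome I 7216145 to 7216464, had a signal of 34.1 and ranked 457 in the pooled list, 1325 in replicate 1 and 853 in replicate 2. It lay in an intron, 479 bp before an internal TSS of the gene, and held no WGATAR site. The other 3 regions of nhr-23 ranked 3706, 6063 and 8602 in the pooled list.

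The adjacent genes nhr-291 and nhr-247 on chromosome V each had a strong region with 2 WGATAR sites. The region of nhr-291 lay 153 bp upstream, with a signal of 31.9 and rank 546 in the pooled list, 1141 in replicate 1 and 622 in replicate 2. That of nhr-247, in its 5′ UTR, had a signal of 31.7 and rank 553, 3129 in replicate 1 and 553 in replicate 2. A second region of nhr-247 lay 109 bp upstream, ranked 1145 and held 2 sites as well.

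The gene nhr-31, whose product is known to act in the excretory cell, where it controls vacuolar ATPase genes, had 3 regions among the first 1000 of the pooled list. Their signals were 30.7 in an intron (rank 605), 30.2 at 836 bp upstream (rank 635) and 29.7 in another intron (rank 673). The upstream region ranked 740 in replicate 1 and 1277 in replicate 2. It held 2 WGATAR sites, as did the intronic region at pooled rank 673, while that at pooled rank 605 held 0. The intronic regions were high in replicate 2, at ranks 673 and 540, and low in replicate 1, at 10371 and 15288. Gene nhr-31 had 8 regions in each replicate.

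The summit of nhr-11 held 4 sites, in an intron 365 bp after the TSS. Of the 4, AGATAG and TGATAA overlap by 1 base in the window shown above. The signal was 28.7, with rank 758 in the pooled list, 769 in replicate 1 and 1873 in replicate 2. Other leading members were higher in 1 replicate than in the other. Gene nhr-28 ranked 1165 in the pooled list and 201 in replicate 1, with no overlapping region in replicate 2. Gene nhr-71 ranked 562 in the pooled list, 7910 in replicate 1 and 440 in replicate 2, and nhr-84 ranked 871, 417 and 5394 in the same order. Gene nhr-270 ranked 665 in the pooled list, 10353 in replicate 1 and 713 in replicate 2. The remaining leading members, nhr-22, nhr-32, nhr-3, nhr-119 and nhr-203, had pooled ranks from 967 to 1300. In replicates 1 and 2 the overlapping regions ranked 1062 and 3238 for nhr-22 and 4594 and 1138 for nhr-32. For nhr-119 they ranked 2400 and 2090, and for nhr-203 17749 and 1213. The region of nhr-3 ranked 729 in replicate 2 and had no overlapping region in replicate 1.

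Several genes with many pooled regions were long. The gene nhr-27, which spans 102756 bp on the X chromosome, had 9 pooled regions, 29 in replicate 1 and 25 in replicate 2. The strongest ranked 471 in the pooled list, 464 in replicate 1 and 3115 in replicate 2, held a site 11 bp from its summit and lay 1171 bp after a TSS, where gei-3 was in reach too. The other 8 had signals from 13.8 to 18.2. Gene nhr-34 (11313 bp) had 8 pooled regions, and nhr-46 (10500 bp) and nhr-40 (12730 bp) had 5 each. The strongest pooled regions of these 3 genes ranked 888, 1700 and 3105 in the pooled list. Those of nhr-34 and nhr-40 ranked 566 and 1733 in replicate 2 and had no overlapping region in replicate 1. That of nhr-46 ranked 6294 in replicate 1 and 7805 in replicate 2. Gene nhr-40 is known for a role in muscle development. Some pooled regions overlap each other, and the 205 distinct regions of the family joined into 199.

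Among receptors with orthologues in other animals, 6 of 9 had a pooled region, against 48% of the family and 40.2% of all protein-coding genes, and 1, nhr-8, a thresholded one. These and the following lists are too short for a count to be read against such a background. Gene nhr-25, which encodes the FTZ-F1-type receptor of moulting and epidermal development, had 3 pooled regions. The strongest lay 161 bp before a TSS, with a signal of 20.2 and rank 2569. It ranked 5687 in replicate 2 and had no overlapping region in replicate 1. The TR2/TR4-type gene nhr-41 had 3 pooled regions, led by one with a signal of 22.8 (rank 1604 in the pooled list, 16049 in replicate 1 and 1534 in replicate 2). The Tailless-type gene nhr-67 and nhr-85, related to insect E75, had 1 each, at ranks 8571 and 11550. The region of nhr-67 was overlapped in neither replicate, and that of nhr-85 ranked 5910 in replicate 1 and 22402 in replicate 2. The NR4A-type gene nhr-6, nhr-48 and nhr-91 had 0 pooled regions. Gene nhr-6 had 2 regions in replicate 1 and 0 in replicate 2, and the other two had regions in both replicates at ranks no higher than 6177.

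Receptors of lipid and energy metabolism had a pooled region in 5 of 6 cases, against 40.2% of all genes. Besides nhr-80, the gene nhr-49, a regulator of fat oxidation and desaturation, had 3, the strongest 1412 bp upstream with a signal of 19.2 and rank 3150. Gene nhr-76 had a region at rank 2786, nhr-66 at 5187 and nhr-13 at 7538. Those of nhr-66 and nhr-13 ranked 3507 and 5035 in replicate 1 and had no overlapping region in replicate 2. Gene nhr-62 had 1 region in each replicate and 0 in the pooled list.

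All 3 receptors of the propionate shunt and vitamin B12 response had a pooled region, against 40.2% of all genes. The strongest region of each held a WGATAR site, which 32% of all nuclear pooled regions do. In the other lists of receptors with known roles, the strongest regions of nhr-25, nhr-66 and nhr-80 held a site. Those of nhr-8, nhr-23, nhr-41, nhr-67, nhr-85, nhr-13, nhr-49, nhr-76, nhr-86, nhr-31 and nhr-40 did not. The sites are therefore not read as a trait of these 3 receptors. Genes nhr-10 and nhr-68 switch on an alternative propionate breakdown pathway when vitamin B12 is low, and nhr-114 acts in the response to B12-poor diets. The strongest region of nhr-68 had a signal of 20.5 (rank 2421 in the pooled list, 928 in replicate 1 and 11141 in replicate 2). That of nhr-10, 844 bp upstream, had a signal of 19.5 and rank 2965. It ranked 1028 in replicate 2 and had no overlapping region in replicate 1. That of nhr-114, in a coding exon, had a signal of 16.5 and rank 5807, with 22749 in replicate 1 and 2235 in replicate 2. Its site lay 45 bp from the pooled summit, and the overlapping region of replicate 2 held 0 sites within 50 bp of its own summit.

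Of the receptors of stress, pathogen and metal response, nhr-86, which acts in pathogen defence, had a pooled region, at rank 4428. That region ranked 1634 in replicate 2 and had no overlapping region in replicate 1. The hypoxia-induced gene nhr-57 and nhr-14, a gene of iron handling, had 0 pooled regions. Gene nhr-14 was the 1 receptor gene with a region within the first 328 of a replicate and no pooled region. Its region in replicate 1, in the 3′ UTR, ranked 240 with a signal of 18.4, and its region in replicate 2 lay elsewhere at rank 19888. Among the genes of development and tissue function, nhr-31 and nhr-40 had pooled regions and nhr-60 had 0. The embryonic gene nhr-2 had 0 regions in every list. Over these 25 receptor genes with known roles, 17 had a pooled region and 2 a thresholded one, against 40.2% and 1.71% of all genes.

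Across the whole family, 129 of 269 receptor genes (48%) had at least 1 pooled region, against 40.2% of all protein-coding genes. In replicate 1 the count was 216 (80.3%), against 70.8% of all genes, and in replicate 2 it was 193 (71.7%), against 65.5%. Both replicates gave a region at 161 of the genes (59.9%), against 52% of all genes. Replicate 1 alone gave one at 55 (20.4%, against 18.8%) and replicate 2 alone at 32 (11.9%, against 13.5%). There were 20 receptor genes with no region in any list (7.43%), against 15.6% of all genes. A further 51 had a region in both replicates and none in the pooled list (19%), against 17.9%. A pooled region that was itself overlapped in both replicates stood at 76 receptor genes (28.3%), against 24.4% of all genes.

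Receptor genes were longer than the typical gene, with a median of 2309 bp against 2027 bp over all protein-coding genes, and longer genes have a larger reach. Receptor genes with a pooled region had a median length of 2758 bp, and those without one 2143 bp. With the gene body not counted, 121 receptor genes (45%) had a region within 2000 bp of a TSS, against 36.8% of all genes. The part of length in these shares was not tested.

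The signals at receptor genes were like those elsewhere. The strongest pooled region per gene had a median signal of 17.7 over the 129 receptor genes (quartiles 15.7 and 21.4) and of 17.3 over all 8021 genes with a region (quartiles 15.1 and 21). A single region was present at 83 of the 129 (64.3%), 2 at 26 and 3 or more at 20, against a single region at 66.5% of all genes with one. Of 221 pairs of a receptor gene and a pooled region, 106 had the summit upstream (48%), against 44.1% of all such pairs, 71 in an intron (32.1% against 35.9%) and 21 in a coding exon (9.5% against 5.94%). The summit lay within 500 bp of a TSS in 29% of the receptor pairs and 27% of all pairs.

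Of the 205 regions, 150 had no protein-coding gene outside the family in reach and 55 did. A single gene was in reach of 136 (66.3%), against 73% of the 9312 nuclear pooled regions with any gene in reach. Of the 205 regions, 16 were in reach of 2 receptor genes. The strongest after that of nhr-130 and nhr-212 were 2 regions inside nhr-12, in an intron and a coding exon, that lay upstream of nhr-205. The next had their summit in the 5′ UTR of nhr-263 and upstream of nhr-148 (signal 21.4, rank 2016), in a coding exon of nhr-153 and upstream of nhr-136 (signal 19.5, rank 2986), and in the 3′ UTR of nhr-110 and upstream of nhr-117 (signal 18.2, rank 3885). The shared regions named here all lie on chromosome V, while others of the 16 lie on chromosomes I, II and X. The last 3 pairs above are named after their values were seen.

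The family is concentrated on chromosome V, which carries 167 of the 269 genes (62.1%), against 25% of all protein-coding genes. There 73 receptor genes (43.7%) had a pooled region, against 36.8% of all genes of that chromosome. On chromosome IV it was 20 of 33 (60.6%, against 40.9%), on X 15 of 23 (65.2%, against 50.6%) and on II 10 of 15 (66.7%, against 35.4%). On chromosome I 9 of 23 (39.1%) had one, against 39.7%, and on III 2 of 8 (25%), against 41.5%. The counts on II and III are small. The thresholded genes were 2 on V, 2 on IV, 1 on II and 1 on III.

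**Figure D2:**
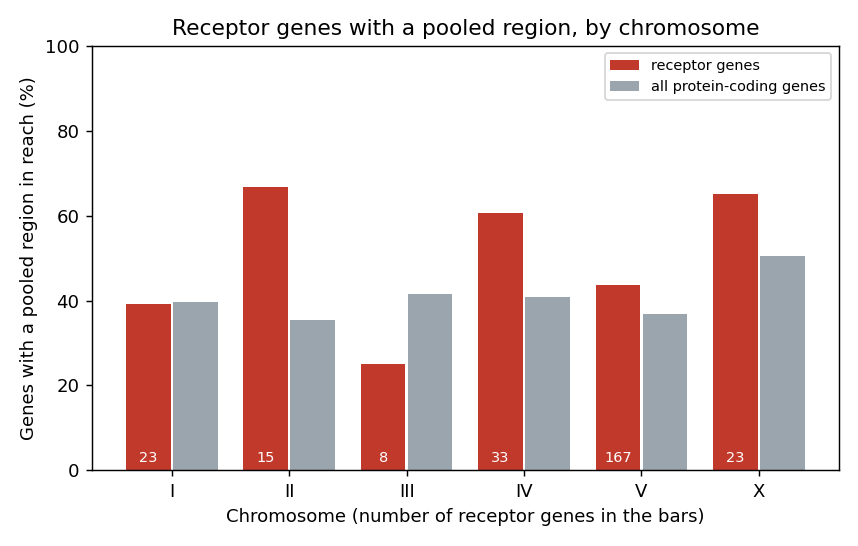
Share of receptor genes (left bars, with their number inside) and of all protein-coding genes (right bars) with a pooled region in reach, by chromosome. The receptor share is above that of all genes on II, IV, V and X, close to it on I (39.1% and 39.7%) and below it on III, where it rests on 8 genes.

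Of the 205 pooled regions of the family, 79 had a WGATAR site no more than 50 bp from the summit (38.5%, exact 95% Clopper-Pearson interval 31.8 to 45.6, counting error only), against 32% of all 11608 nuclear pooled regions. In the thresholded list the share was 4 of 5 (80%), against 88.8%. In replicate 1 it was 27.1% of 462 regions, against 25% of all, and in replicate 2 29.9% of 402, against 26.9%. The gap in the pooled list was narrower in lists of the same length from a single replicate, at 32.4% against 28.6% in replicate 1 and 32.2% against 31.1% in replicate 2. The median distance from the summit to the nearest site was 18 bp both in the family and over all pooled regions with a site. Of the 205 family regions, 20 held 2 or more sites. No such count over all regions stands beside it, so it is not read as a trait of the family.

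By rank, the share with a site was 80% in the first 328 (4 of 5) and 55.6% from rank 329 to 1000 (10 of 18). It was 35.3% from 1001 to 2000, 35.5% from 2001 to 5000 and 35.9% from 5001 on. Over all nuclear regions the shares in the same order were 88.8%, 67.4%, 42.3%, 31% and 24.8%. In the last and largest class, with 103 family regions, the interval of the family's share was 26.7 to 46. In the first 4 classes the interval took in the share of all regions. The intervals cover counting error only, and regions share their libraries, so they are no test of a difference in any class. By class, the mean GC content of the windows was 36.4%, 33.4%, 30.9%, 29.1% and 29.3% in the family. Over all regions it was 34.8%, 33.3%, 29.8%, 28.9% and 29.1%. The part of base composition was not tested.

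**Figure D3:**
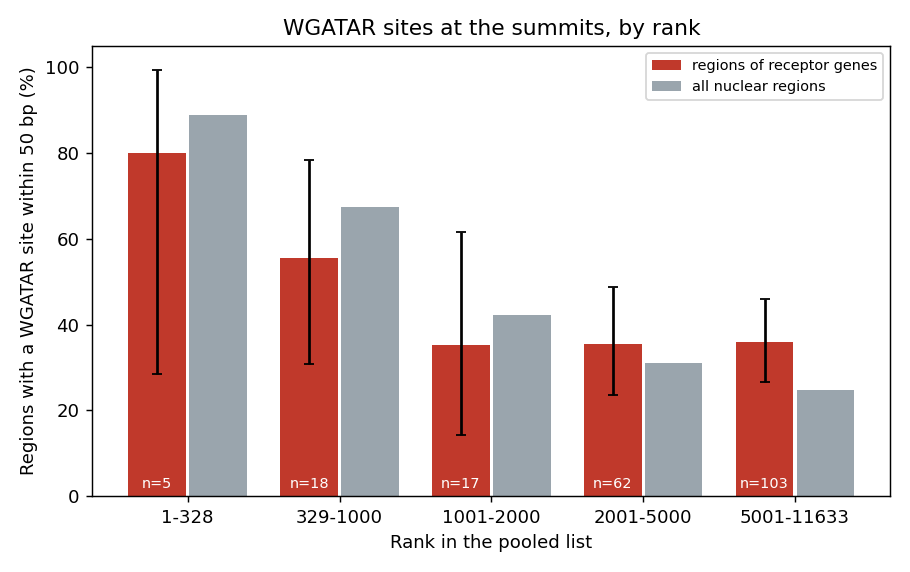
Share of regions with a WGATAR site within 50 bp of the summit, by rank in the pooled list, for regions of receptor genes (left bars, with n and exact 95% binomial intervals) and all nuclear regions (right bars). The family stands at 80% in the first class and 35.9% in the last, and all regions at 88.8% and 24.8%.

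The replicates supported the family's pooled regions about as often as pooled regions in general. A region of replicate 1 overlapped 142 of the 205 (69.3%), against 70.5% of all nuclear pooled regions, and a region of replicate 2 overlapped 166 (81%), against 81.4%. Both did so for 107 (52.2%), against 53.6%, and neither for 4 of the 205, against 196 of all 11608. As the pooled list was made from both replicates, this overlap is no independent test. Across those 107 regions Spearman's correlation of the replicate signals was 0.235, and it was 0.181 across 6219 regions of the whole list. Regions share their libraries and are not independent replicates. In 18 of the 107, the ranks, taken as shares of each list, were 10-fold or more apart. No such count over all regions stands beside it, so it is not read as a trait of the family.

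The 5 thresholded regions were the only ones of the family that ranked within the first 1000 of both replicates. Of all nuclear regions at pooled ranks 1 to 328, 81.5% did so as well. Of the 18 family regions at pooled ranks 329 to 1000, 0 did so, against 10.4% of all nuclear regions at those ranks. As the thresholded list was derived from both replicate lists, high ranks in both are no independent test of it. By gene, allowing different regions in each replicate, 20 receptor genes (7.43%) had a region within the first 1000 of replicate 1, against 4.96% of all genes. In replicate 2 it was 20 as well (7.43%), against 4.87%, and 10 (3.72%) had one in both, against 2.1%. Those 10 were the 6 genes with a thresholded region and nhr-12, nhr-31, nhr-34 and nhr-40.

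**Figure D4:**
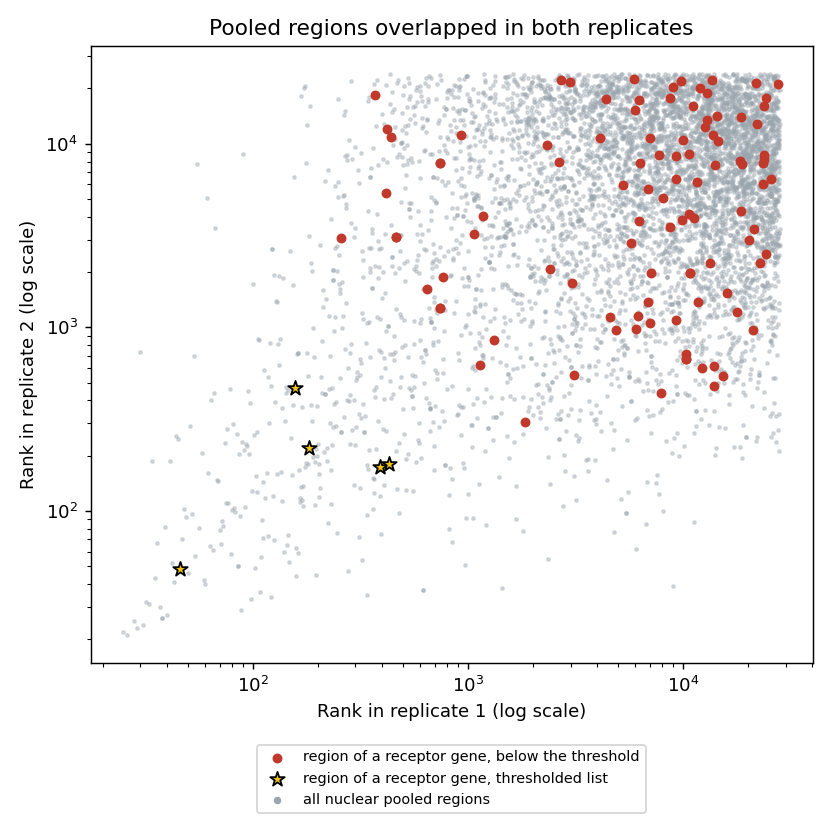
Rank in replicate 1 against rank in replicate 2 (both log scales) for pooled regions overlapped in both replicates; grey points are all nuclear regions, red points those of receptor genes below the threshold, stars those of receptor genes in the thresholded list. The 5 stars lie within rank 470 of both replicates, apart from the red points, 0 of which lie within rank 1000 on both axes.

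The receptor genes nhr-192, nhr-205 and nhr-12 lie in a dense stretch of chromosome V, 10049000 to 10100000, which held 53 pooled regions, 63 of replicate 1 and 68 of replicate 2. All their pooled regions, 13 in all, fell within it, with 6 at nhr-12, 5 at nhr-192 and 4 at nhr-205, 2 of them shared. The strongest of nhr-12 lay 780 bp upstream and ranked 400 in the pooled list, 1842 in replicate 1 and 304 in replicate 2. The strongest of nhr-205, shared with nhr-12, had a signal of 30.3 and ranked 628, 258 and 3066 in the same order. That of nhr-192, in a coding exon, had a signal of 26.8 and ranked 937, 12204 and 604. Each of these strongest regions was high in 1 replicate and lower in the other.

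**Figure D5:**
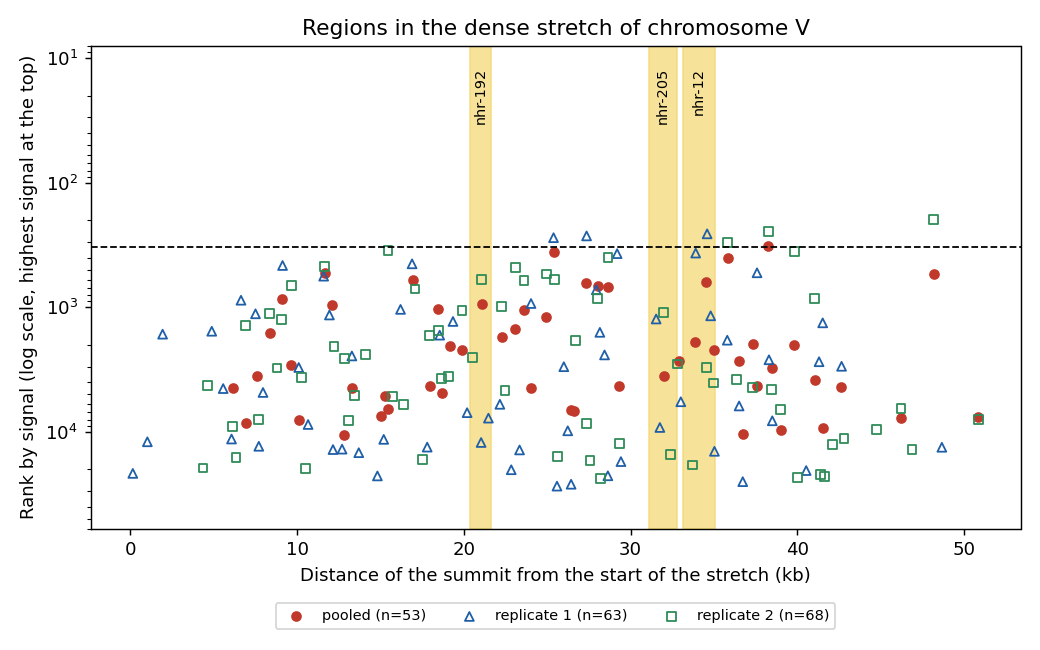
Rank by signal (log scale, highest at the top) of regions in the dense stretch of chromosome V against the distance of the summit from its start in kb, for the pooled list (circles), replicate 1 (triangles) and replicate 2 (squares); yellow bands are receptor genes and the dashed line is rank 328. Regions run across the whole stretch and are not limited to the 3 receptor genes, and no pooled region of these genes reaches the threshold.

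A WGATAR site stood at 2 of these 13 regions (15.4%, interval 1.92 to 45.4), against 22.6% of all 53 pooled regions of the stretch and 40.1% of the family's other 192 regions. Without the stretch, 126 receptor genes (46.8%) had a pooled region, against 40.1% of all genes. The count was then 213 in replicate 1 (79.2%, against 70.7%) and 190 in replicate 2 (70.6%, against 65.5%). The 6 genes of the thresholded list were not touched. The median signal of the family's pooled regions was 16.8 without the stretch and 17.1 with it, against 16.4 over all nuclear pooled regions in both cases.

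Nuclear receptors with other names, cofactors and known target genes were examined beside the family. Of the 5 receptors, daf-12, the receptor for dafachronic acid, had 2 pooled regions, the strongest in an intron with a signal of 30.9 (rank 590 in the pooled list, 2427 in replicate 1 and 811 in replicate 2). The olfactory neuron gene odr-7 and fax-1 had 1 each, at ranks 3438 and 9736, and unc-55 and sex-1 had 0. Among 6 cofactor and ligand pathway genes, 4 had a pooled region, against 40.2% of all genes. They were mdt-15, the Mediator subunit that works with nhr-49 (signal 27, rank 920), daf-36, which acts in dafachronic acid synthesis (signal 30.2, rank 633), din-1 (rank 2981) and daf-9 (rank 9623). In replicates 1 and 2 the overlapping regions ranked 537 and 4006 for mdt-15 and 15103 and 3357 for daf-36. For din-1 they ranked 2914 and 3128, and for daf-9 11340 and 1210. Of 10 known target genes of nhr-49, nhr-10 and nhr-68, 3 had a pooled region, against the same 40.2%. The desaturase gene fat-6 had a thresholded one, with a signal of 42.2, rank 253 in the pooled list, rank 131 in replicate 2 and no overlapping region in replicate 1, while acdh-1 and hach-1 ranked 11274 and 10704. Over these 21 genes, 10 had a pooled region and 1 a thresholded one, against 40.2% and 1.71% of all genes.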

How the data were processed

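The deposited ce11 lists were used: 1 per replicate and 1 pooled, all before thresholding, and 1 thresholded list. Per the file lists deposited with each library, the thresholded list was derived from the pooled list and both replicate lists; the aligner, peak caller and threshold are not given in the sources used here. The authors' signal per region and the summit offset in the deposited lists were the values used. The lists carry no numbers of reads; depth is unknown, and no interval can be given for a single signal.

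Genes and TSSs came from Ensembl release 115 (WBcel235), sequence from the RefSeq copy of that assembly. Summits were assigned to genes within 2000 bp of any TSS or in the gene body. WGATAR was searched on both strands within 50 bp. With 1 group of 2 replicates there was no comparison to test: shares are set beside those of all genes or regions. The replicates are labelled biological; the spread between them may also be technical.

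Named were genes with a thresholded region, the 25 of highest pooled signal, the 10 with most pooled regions, those with listed roles and those in the stretch. The members and lists were chosen with earlier results of these data known. Python 3.11.15, numpy 2.4.6, pandas 2.3.3, scipy 1.17.1 and matplotlib 3.10.9 were used, and the assignment, overlap and motif steps were tested on simulated data.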

Additional observations from a re-analysis of the deposited data

How the results depend on the processing

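Counts and shares were recomputed with other reaches, motifs, windows and overlaps; of 131 alternative values, 65 stayed close to the reported one and 66 did not, 45 of these ranks of single genes in 1 replicate. Close means within 1.5 times for counts and single ranks, and within the 95% interval of the reported share or median otherwise, which is wide for the 5 thresholded regions. The 6 genes with a thresholded region became 3 with 500 bp around the TSS (against 1% of all genes), 3 with the nearest TSS alone (1.13%) and 3 in the upper 50% of the list (0.896%). The 129 genes with a pooled region became 76 when overlap in both replicates was asked for. The WGATAR share in the pooled list was 22.4% within 25 bp, 55.1% within 100 bp, 59.5% for GATA alone and 8.78% for CTTATCA, against 19.2%, 47.5%, 54.5% and 8.27% of all regions. The same settings gave 15.8%, 44.4%, 53.2% and 5.41% in replicate 1, against 13.7%, 41.1%, 49.8% and 3.89%, and 16.4%, 46%, 56.7% and 4.73% in replicate 2, against 15.3%, 42.5%, 51.1% and 4.86%, so that CTTATCA in replicate 2 was not above all regions. In the thresholded list 100 bp gave 100%, against 95.7%. Overlap of at least 50% of the region gave 61.5% support in replicate 1, against 64.4% of all regions, and summits within 100 bp gave 54.1% in replicate 1 and 72.2% in replicate 2, against 56.4% and 72.7%. The median rank of the strongest region per receptor gene, 4437, was 4129 without replicate 1 and 5290 without replicate 2. Wider windows and shorter motifs match more often by construction; the cause of the others was not tested. No paired analysis was possible because there is a single group. Unknown depth and 2 replicates limit what ranks below the threshold can show.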
